A study of Homo sapiens with 4 samples.

Results

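The genes described here carry out DNA replication and the S phase of the cell cycle: 45 genes for origin licensing, the replication fork and nucleotide synthesis, of 36337 gene names on the array. Members were taken by gene name in the array's own annotation, from a list drawn up by function when earlier results of these data were already known, and each gene was represented by the probe with the highest mean signal. Expression was measured in GIST-T1, 1 established human cell line derived from a gastrointestinal stromal tumor (GIST), after electroporation (Nucleofector) of 3000000 cells with 100 pmol of either a miR-34a mimic (synthetic RNA duplexes made to work like the natural miRNA) or a negative control mimic. Total RNA was taken 48 h later, and 100 ng of it was amplified and labeled with Cy3 for one-color Agilent arrays, 2 per condition. The comparison asks which transcripts respond to ectopic miR-34a. Nothing in the sources states that the replicates were separate cultures, so the p-values measure the spread between these arrays, which may be technical.

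Values are the log2 processed signal minus the 75th percentile of the array, a scale on which 0 is the signal of the 75th percentile probe and levels of different probes cannot be set against each other. A difference is the mean of the miR-34a mimic arrays minus that of the negative control arrays. The 4 arrays shared 1 slide and 1 scan, and between 41.8% and 45.2% of their probes were well above background. All 5 GIST markers examined (KIT, PDGFRA, ANO1, ETV1 and PRKCQ) were well above background on the 4 arrays. Of 17 markers of epithelial cells, leukocytes, endothelium and smooth muscle, 7 (CDH1, CDH17, VIL1, KRT20, PECAM1, KDR and MYH11) were above background on no array and 5 on every array. Some markers differed between the conditions: KIT was at -0.70 and PDGFRA at -1.53, whereas ANO1 was at -0.06, ETV1 at -0.07 and PRKCQ at -0.23. The summed linear signal of the 5 GIST markers, in which the brightest probes weigh most, was 180 to 181 with the mimic. It was 290 to 292 with the control, relative to the 75th percentile. The sum of the 4 smooth muscle markers was 2.53 to 2.54 and 3.09 to 3.31, with DES at -0.39. The part of these differences in the results for the replication genes was not tested.

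Replication begins with licensing in G1 phase, when the origin recognition complex, CDC6 and CDT1 load the MCM2-7 helicase onto DNA. At S phase entry CDC45 and the GINS complex join the helicase to make it active, primase and the polymerases start and extend the strands, and the sliding clamp PCNA holds the polymerases on DNA. Many of these genes are transcribed under E2F factors, which cyclin D and cyclin E kinases release from the RB protein, and miR-34a is a p53-induced miRNA known for slowing the G1 to S transition.

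The mature sequence of miR-34a is shown first because it is the agent delivered. In capitals is the seed, bases 2 to 8, which pairs with CACTGCC in a transcript (RefSeq, GRCh38.p14, chr1:9151735-9151756, minus strand).
hsa-miR-34a-5p: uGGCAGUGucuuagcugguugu
The 60-base probes of the members held CACTGCC in 0 of 56 cases, against 0.435% of all 50599 probes, and the probes cover only a short stretch of each transcript.

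Stretches of 4 promoters are shown because these genes share promoter words that the choice of members did not use. Such words stand in the promoters of members with unlike differences. Shown are GINS3 and MCM3, with the lowest differences, MCM2, a partner of MCM3 in the helicase, and MCM6, another partner, which was not lower. The words of MCM6 begin 152 to 86 bases before the start site. The nearest word begins 5 bases before it in GINS3, 4 before it in MCM3 and at base 3 of the transcript in MCM2. Each stretch runs for 200 bases, from 180 before the RefSeq start site to 20 after it, 5′ to 3′ on the strand of the gene (GRCh38.p14). Capitals mark exact matches on either strand to the E2F-type words TTTCGCGC, TTTGGCGC, TTTCCCGC and TTTGCCGC, and an unbroken run of 12 capitals holds 2 overlapping words, one on each strand. The stretches lie at chr16:58392291-58392490 (GINS3, plus strand), chr6:52284723-52284922 (MCM3, minus strand), chr3:127598231-127598430 (MCM2, plus strand) and chr2:135876424-135876623 (MCM6, minus strand).
GINS3: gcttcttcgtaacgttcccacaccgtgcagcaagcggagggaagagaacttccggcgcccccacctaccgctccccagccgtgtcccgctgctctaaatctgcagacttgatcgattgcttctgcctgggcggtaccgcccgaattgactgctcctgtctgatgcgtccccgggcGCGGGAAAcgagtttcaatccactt
MCM3: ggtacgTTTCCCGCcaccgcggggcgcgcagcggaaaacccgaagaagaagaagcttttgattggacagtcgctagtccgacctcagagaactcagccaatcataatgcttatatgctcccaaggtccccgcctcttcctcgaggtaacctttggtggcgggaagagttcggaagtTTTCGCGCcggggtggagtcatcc
MCM2: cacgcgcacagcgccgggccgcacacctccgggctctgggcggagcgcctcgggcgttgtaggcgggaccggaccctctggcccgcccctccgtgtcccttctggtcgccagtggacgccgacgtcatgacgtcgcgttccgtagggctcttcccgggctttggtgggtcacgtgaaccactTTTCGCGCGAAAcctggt
MCM6: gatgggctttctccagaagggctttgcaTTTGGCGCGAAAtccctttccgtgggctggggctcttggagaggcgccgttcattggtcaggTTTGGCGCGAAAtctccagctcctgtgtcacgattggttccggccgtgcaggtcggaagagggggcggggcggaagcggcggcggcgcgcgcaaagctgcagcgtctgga
RefSeq promoters of 300 bases were matched for 39 of the 45 members, and 21 of the 39 (53.8%) held at least 1 of the words, against 3.99% of 27305 genes with a promoter and 6.52% of the 9143 of them tested on the arrays. TTTCCCGC stood in 10 members, TTTGGCGC in 9, TTTCGCGC in 5 and TTTGCCGC in 0. The CCAAT word, bound by NF-Y, stood in 61.5% of the members and 43.1% of the tested genes, and TTTGAA, the word of the cell cycle homology region, in 2.56% and 13.5%. These words were chosen after the expression values were seen, and a match is a description, not a binding site.

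The replication genes were mostly slightly lower after the miR-34a mimic. Of the 45, 37 had a negative difference, where 51.3% of the 16184 gene names tested did, and 8 had a positive one. Their median difference was -0.17, against -0.01 over all genes, and they ranged from -0.89 (GINS3) to 0.12 (PRIM2). The shift was made of small differences: only GINS3 was lower by more than 1.5-fold (2.22% of the members, against a background of 4.79%), and 0 members were higher by that much (background 1.95%). All 45 were well above background on each of the 4 arrays, as were 41.9% of the gene names on the array, so no member entered the test through 1 condition alone. In RNA from a whole culture, fewer cells in S phase and less RNA per cell cannot be told apart.

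For 31 members both mimic arrays were lower than both control arrays (68.9%, background 30.6%), for 4 both were higher (background 31.3%), and the arrays of the other 10 overlapped. By limma with Benjamini-Hochberg adjustment over all 21474 probes tested, 0 members and 0% of all genes reached an adjusted p under 0.05, and the lowest adjusted p among the members was 0.0948. At an unadjusted p under 0.05, 19 members were lower (42.2%, background 11.9%) and 0 were higher (background 13%). With a variance trend along the signal, the adjusted p was under 0.05 for 13 members, all lower (28.9%, background 3.95%), and for 0 in the other direction (background 4.28%). These 13 were CDT1, GMNN, MCM2, MCM3, MCM7, CDC45, GINS1, GINS3, PCNA, RRM2, TK1, CHAF1B and DTL. The outcome of the adjusted test thus differed with the variance model. The count of 19 was 10 when either control array was left out (background then 6.58% to 6.62%). With 2 arrays against 2, an exact permutation test of a single gene cannot give a two-sided p below 0.33.

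**Figure D1:**
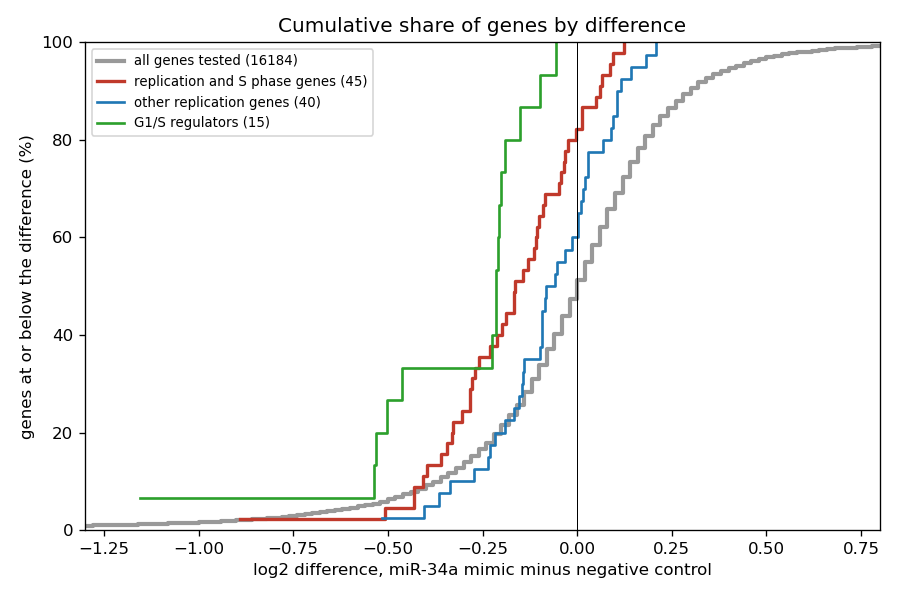
Cumulative share of genes (y axis, %) at or below a given log2 difference, miR-34a mimic minus negative control (x axis), for all 16184 gene names tested, the 45 replication and S phase genes, 40 other replication genes and 15 G1/S regulators, each curve 1 set. The curve of the replication and S phase genes lies left of the curve of all genes through its middle, with medians of -0.17 and -0.01, and ends at 0.12.

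The genes for origin licensing numbered 11, of which 9 were lower (background 51.3%), 6 of them at an unadjusted p under 0.05 (background 11.9%). Their median difference was -0.20. MCM3, a subunit of the MCM2-7 helicase, had the lowest difference among them. Its signal (NM_002388, probe at hg19 chr6:52128893-52128952) was 4.74 and 4.79 with the mimic and 5.26 and 5.28 with the control. The arrays of the conditions were thus well apart, and the replicates of each lay close together. The difference was -0.51 (SE 0.055, n = 2 per condition, limma adjusted p = 0.0948, and 0.0102 with the variance trend), a 1.42-fold lower signal.

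CDC6, the loader that recruits the helicase to the origin recognition complex, read -3.07 and -2.79 with the mimic and -2.53 and -2.47 with the control. The mimic arrays were lower but differed from each other by more than the control arrays did. The probe was the dimmest of those chosen for the members, at a mean signal of -2.72, though above background on all 4 arrays. The difference was -0.43 (SE 0.12, limma adjusted p = 0.163, and 0.323 with the variance trend), but -0.16 under normexp background correction and -0.24 under quantile normalization. GMNN encodes geminin, which binds CDT1 and blocks licensing outside G1 phase. Its signal was 2.72 and 2.70 with the mimic and 3.03 and 3.05 with the control, a difference of -0.33 (SE 0.052, limma adjusted p = 0.101, and 0.0205 with the variance trend). The loading factor CDT1 and its inhibitor geminin were thus both lower, CDT1 by -0.28.

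The 6 subunits of the MCM2-7 ring did not share 1 difference. MCM3 (-0.51), MCM2 (-0.30) and MCM7 (-0.20) had 95% intervals wholly below 0, whereas the intervals of MCM4 (-0.11, from -0.30 to 0.07), MCM5 (-0.09, from -0.33 to 0.16) and MCM6 held 0. MCM6 was among the 4 highest members. It read 3.89 and 3.98 with the mimic against 3.81 and 3.87 with the control, so that both mimic arrays were higher by a small margin. Its difference was 0.10 (95% interval from -0.09 to 0.28, limma adjusted p = 0.417), and the interval of MCM3, from -0.67 to -0.35, lies wholly below it. The difference between the subunits themselves was not tested. A second probe of MCM5 gave -0.39 (SE 0.16), and a second probe of MCM7 gave -0.16. Of the origin recognition complex, ORC6 was at -0.13 and ORC1 at 0.05, with intervals that held 0.

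**Figure D2:**
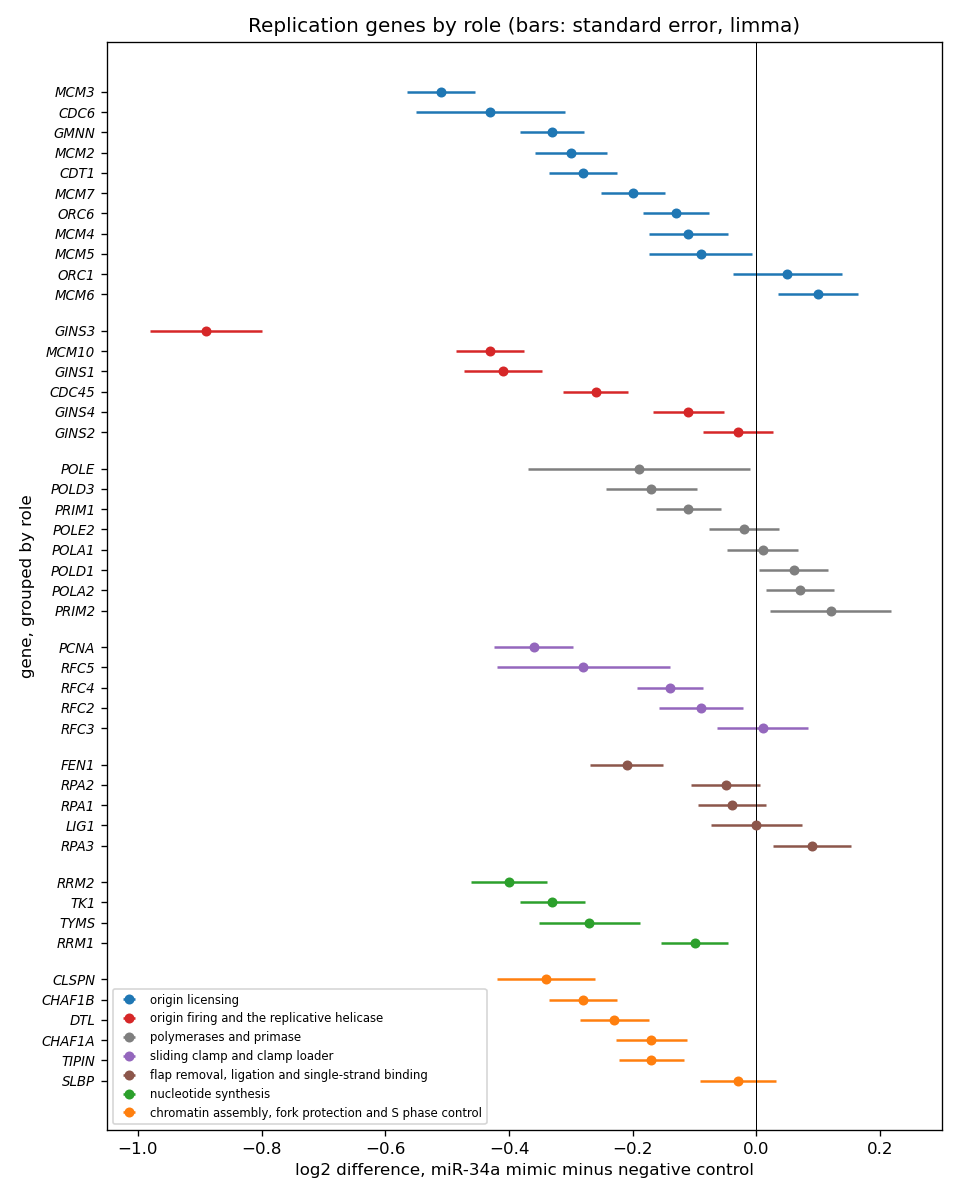
Log2 difference, miR-34a mimic minus negative control (x axis), of each of the 45 genes (y axis), grouped by role and ordered within each role. Points are differences from 2 arrays per condition and bars are the limma standard error, with GINS3 at -0.89 farthest to the left and the polymerase and primase genes on both sides of 0.

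All 6 genes for origin firing and the active helicase were lower (background 51.3%), with a median of -0.33. For 4 of them the unadjusted p was under 0.05 (background 11.9%). GINS3, a subunit of the GINS complex, had the largest difference of the 45 members. Its signal (NM_022770, probe at hg19 chr16:58439799-58439858) was 2.18 and 2.37 with the mimic and 3.17 and 3.16 with the control. The lower control array stood well above the higher mimic array. The difference was -0.89 (SE 0.090, limma adjusted p = 0.0948, and 0.0102 with the variance trend), or 1.85-fold lower.

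GINS1, another subunit of the same complex, read 3.23 and 3.32 with the mimic and 3.67 and 3.69 with the control, a difference of -0.41 (SE 0.063, limma adjusted p = 0.1, and 0.018 with the variance trend). GINS4 (-0.11, 95% interval from -0.27 to 0.06) and GINS2 (-0.03, from -0.20 to 0.13) were close to 0. The 4 subunits of this complex therefore spanned a range from -0.89 to -0.03, each read by 1 probe. MCM10, which helps to activate the loaded helicase, read -0.89 and -0.93 with the mimic and -0.46 and -0.49 with the control. Its arrays agreed closely within each condition, and the difference was -0.43 (SE 0.055, limma adjusted p = 0.0954, and 0.0645 with the variance trend), and -0.27 under normexp. CDC45, the factor that joins GINS on the helicase, was at -0.26 (SE 0.053).

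The polymerases and primase showed no common direction. Of these 8 genes, 4 were lower (background 51.3%) and 4 higher, and the median was -0.01. At an unadjusted p under 0.05, 0 were lower (background 11.9%) and 0 higher (background 13%). PRIM2, the large subunit of primase, had the highest difference of all members. It read 1.12 and 1.32 with the mimic and 1.14 and 1.05 with the control, so that the conditions overlapped. Its difference was 0.12 (SE 0.098, limma adjusted p = 0.473), while its other probes gave -0.09 and -0.02.

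POLA2, the second subunit of polymerase alpha, read 3.28 and 3.29 with the mimic and 3.19 and 3.24 with the control, a difference of 0.07 (SE 0.055, limma adjusted p = 0.499). Both mimic arrays were higher than both control arrays by a small margin, and the 95% interval of the difference ran from -0.10 to 0.23. POLA1 (0.01), POLD1 (0.06), POLE2 (-0.02), PRIM1 (-0.11) and POLD3 (-0.17) also had intervals that held 0. POLE, the catalytic subunit of polymerase epsilon, was at -0.19 on its brighter probe (SE 0.18), at 0.04 there without the second control array, and at 0.33 on a dimmer one that was above background on 3 arrays.

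Of the sliding clamp and its loader, 4 of 5 genes were lower (background 51.3%), with a median of -0.14. An unadjusted p under 0.05 was reached by 1 of them (background 11.9%). That gene was PCNA, the clamp, which read 4.72 and 4.63 with the mimic and 5.06 and 5.02 with the control. Both mimic arrays lay well below the control arrays, and the difference was -0.36 (SE 0.064, limma adjusted p = 0.109, and 0.0211 with the variance trend). The other probes of PCNA gave -0.22 and -0.18, so that the direction was the same on all 3. The loader subunits RFC5 (-0.28), RFC4 (-0.14), RFC2 (-0.09) and RFC3 (0.01) had intervals that held 0, and RFC5 had the widest of these, from -0.68 to 0.12. It was at -0.45 without the first mimic array and at -0.11 without the second.

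Among the genes for flap removal, ligation and single-strand binding, 4 of 5 were lower (background 51.3%), with a median of -0.04. These 4 include LIG1, whose difference rounds to 0.00. FEN1, the nuclease that trims the flaps of Okazaki fragments, was at -0.21 (SE 0.059). It alone of the group had an unadjusted p under 0.05 (background 11.9%). The subunits of replication protein A, which coats single-stranded DNA, lay near 0: RPA1 at -0.04, RPA2 at -0.05 and RPA3 at 0.09. RPA3 read 5.02 and 5.08 with the mimic and 5.00 and 4.92 with the control, an adjusted p of 0.439 by limma. LIG1, the ligase that joins the fragments, was at 0.00 (95% interval from -0.22 to 0.21).

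The 4 nucleotide synthesis genes were lower on both mimic arrays than on both control arrays (background 30.6%), with a median of -0.30. RRM2, the small subunit of ribonucleotide reductase, is made mainly in S phase. It read 3.45 and 3.54 with the mimic and 3.89 on each control array, a difference of -0.40 (SE 0.062, limma adjusted p = 0.101, and 0.0182 with the variance trend). RRM1, the large subunit, was at -0.10 (95% interval from -0.26 to 0.06). TK1, the thymidine kinase of the salvage pathway, read 8.12 and 8.15 with the mimic and 8.46 and 8.47 with the control. The replicates agreed closely, and the difference was -0.33 (SE 0.053, limma adjusted p = 0.102, and 0.0192 with the variance trend), and -0.18 under quantile normalization. TYMS, which makes thymidylate anew, was at -0.27 (SE 0.082).

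All 6 genes for chromatin assembly, fork protection and S phase control were lower (background 51.3%), with a median of -0.20. For 4 of them the unadjusted p was under 0.05 (background 11.9%). CLSPN encodes claspin, which carries the fork checkpoint signal to CHK1. It read -1.22 and -1.37 with the mimic and -0.97 and -0.93 with the control, so that the conditions did not overlap. The difference was -0.34 (SE 0.079, limma adjusted p = 0.135, and 0.157 with the variance trend), and -0.17 under normexp background correction. CHAF1B, a subunit of chromatin assembly factor 1, was at -0.28, and its partner CHAF1A was at -0.17 on its brighter probe and at -0.56 (SE 0.32) on another. DTL, which directs CDT1 to degradation in S phase, was at -0.23, and TIPIN, a fork protection factor, was at -0.17. SLBP, the histone mRNA binding protein, was at -0.03 (95% interval from -0.21 to 0.15).

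**Figure D3:**
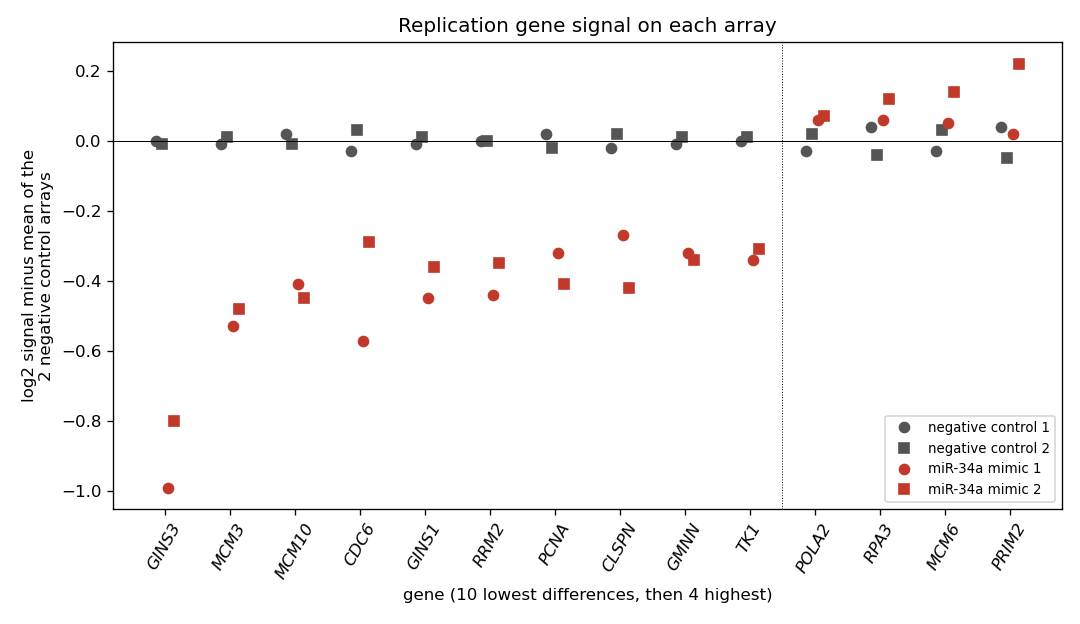
Log2 signal on each of the 4 arrays, relative to the mean of the 2 negative control arrays (y axis), for the 10 members with the lowest differences and, right of the dotted line, the 4 with the highest (x axis). Gray points are negative control arrays, red points are miR-34a mimic arrays, and for the 10 lowest genes the red points lie below both gray points, whereas PRIM2 overlaps.

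Members whose promoters held an E2F-type word had a median difference of -0.23, with 17 of 21 lower, and the 18 matched members without one had a median of -0.14, with 15 lower. At an unadjusted p under 0.05, 13 of the former and 6 of the latter were lower (background 11.9%). The share lower at any size was about the same with and without an E2F-type word. For the CCAAT word, the median was -0.21 among members that held it, with 21 of 24 lower. Among the others it was -0.09, with 11 of 15 lower. The 2 kinds of word were thus alike in the direction of the medians, but not in the share lower. Outside the members, the 575 tested genes with an E2F-type word had a median of 0.00, and 51.3% of them were lower. The 3919 tested genes outside the members with the CCAAT word had a median of 0.01, and 47.9% of them were lower. MCM6, whose stretch holds 4 matches in 2 overlapping pairs, was at 0.10, and MCM3, with 2 separate matches, was at -0.51. The part of these words in the differences was not tested.

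Of 41 other replication genes listed, 40 were matched by name and tested, and 24 of these were lower, with a median of -0.07 (-0.042 without the first mimic array). The share lower was 60%, against 51.3% of all genes. At an unadjusted p under 0.05, 7 of them were lower (17.5%, background 11.9%) and 2 higher (background 13%). With the variance trend 5 reached an adjusted p under 0.05, all lower (12.5%, background 3.95%). Among the lowest were DONSON, a fork protection factor, at -0.52 (SE 0.28, mimic arrays at 0.90 and 0.18), and DUT, the dUTPase, at -0.37 (SE 0.12). The 2 highest were SAMHD1, which degrades deoxynucleotides, at 0.21 and CHTF18, a subunit of an alternative clamp loader, at 0.18.

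The genes that control entry into S phase were lower as well. Of 16 on the list, 15 were tested, and all 15 were lower (background 51.3%), with a median of -0.21. For all 15 both mimic arrays were below both control arrays (background 30.6%). At an unadjusted p under 0.05, 8 were lower (53.3%, background 11.9%), and 5 reached an adjusted p under 0.05 with the variance trend (33.3%, background 3.95%). CCNE2, cyclin E2, which activates CDK2 at S phase entry, read -0.68 and -0.46 with the mimic and 0.61 and 0.56 with the control. This was the largest difference on the list, -1.16 (SE 0.099, limma adjusted p = 0.0948, and 0.0112 with the variance trend), or 2.23-fold lower. CDK4, the cyclin D kinase, was at -0.54, CDC25A, the phosphatase that activates CDK2, at -0.53, and the 2 highest were CCNE1 at -0.10 and RB1 at -0.06. CDK6 was well above background on none of the 4 arrays and was not tested.

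**Figure D4:**
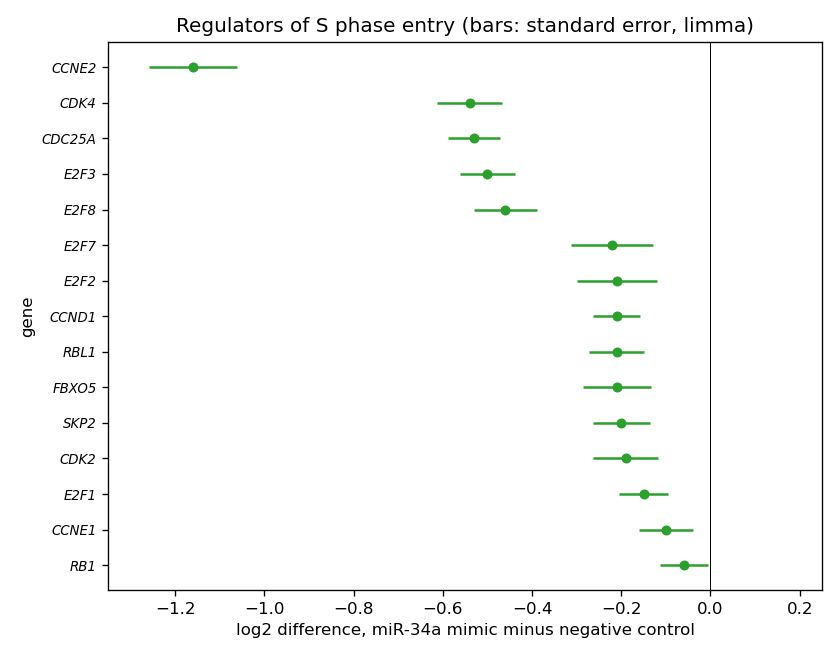
Log2 difference, miR-34a mimic minus negative control (x axis), of 15 G1/S regulators, 1 gene per line (y axis). Points are differences from 2 arrays per condition with the limma standard error as bars, and CCNE2 at -1.16 lies farthest from 0.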

How the data were processed

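The authors deposited the intensity of each spot on each array, extracted with Agilent Feature Extraction 10.7.3.1, which subtracts background but does not scale arrays to one another. They also deposited a table of all arrays, whose intensity values were within 0.496% of the scanner output and in which 0 columns belonged to no mapped sample. Control and outlier-flagged spots were removed, 0 spots were saturated, and repeated spots were averaged. From each log2 processed signal the array's 75th percentile over the 50599 probes was subtracted. Taking it over probes rather than spots was decided after both had been run.

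Differences were tested with limma 3.58.1 in R 4.3.3, with Benjamini-Hochberg adjustment over 21474 probes. These probes passed the background flag on the 2 arrays of either condition. The test was also run on simulated data whose noise did not vary with signal. That run therefore does not bear on the variance trend. The number of arrays limits the precision. The SD of the difference between replicates over the members was 0.108 for the mimic and 0.0832 for the control. The difference between replicates 1 and 2 did not correlate between the conditions (r = -0.02 over 16169 genes). This cannot show whether the replicate numbers in the labels pair the arrays by culture or day.

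The members and lists were chosen with earlier results of these data known. Values on every array are given for the 10 lowest and 4 highest members, and for the other lists the 3 lowest and 2 highest genes are named, except an item that is not reported here. Promoter words were chosen after the values were seen. Alternatives were normexp (offset 50), quantile normalization, 2 other percentile rules, 2 other filters, the authors' table, the replicate block, a variance trend, the methods' t-test, the mean over a gene's probes, and leaving out each array.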

Additional observations from a re-analysis of the deposited data

How the results depend on the processing

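The number of arrays limits the precision, and a gene read by 1 probe has no second reading. Under normexp 5 members, all lower, reached an adjusted p under 0.05 (2.2% of all genes were called lower) and under the variance trend 13 (3.95%), against 0 in the limma analysis as planned. By the methods' t-test 22 were lower at an unadjusted p under 0.05 (9.09% of all genes) and 0 passed after adjustment. The members' median was -0.125 under normexp and -0.128 under quantile normalization. Leaving out 1 array gave 10 to 16 members lower at an unadjusted p under 0.05, with 10 when either negative control array was left out, where 6.58% to 6.62% of all genes were lower at that p, against 11.9% with all arrays. With the replicate number as a block this count was 15 members (10% of all genes), with 0 at an adjusted p under 0.05.

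For the other replication genes, 5 reached an adjusted p under 0.05 with the variance trend (an alternative added after the data were seen), and the count lower at an unadjusted p under 0.05 was 4 with the replicate block, 4 with the mean of a gene's probes and 3 to 5 without 1 array. Over all genes, 10% were lower at that p with the replicate block and 12.6% with the mean of a gene's probes. The 4 of 40 in each of these settings thus did not stand out from the background. The 10% is also the background of the G1/S regulators with the replicate block. Without 1 array the median of the other replication genes was -0.089 to -0.042. Other replication genes lower by more than 1.5-fold numbered 0 to 1 without 1 array. For the G1/S regulators, 4 under normexp and 5 with the variance trend reached an adjusted p under 0.05, the unadjusted count was 5 with the replicate block and 5 to 8 without 1 array, the count past 1.5-fold was 1 to 2 without 1 array, and the median was -0.173 under normexp.

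Signs turned for POLE, at -0.19 as reported, and for members near 0. ORC1 was at -0.05, POLE2 at 0.01 and RPA1 at 0.01 under normexp. LIG1 was at 0.01, RPA1 at 0.02 and SLBP at 0.01 under quantile normalization, POLE at 0.07 with the mean of its probes, and POLA1 and RFC3 at 0.00 with the percentile over spots, a setting added after the data were seen. Without 1 array, ORC1 ranged from -0.03 to 0.13, POLA1 from -0.02 to 0.04, POLE from -0.42 to 0.04, RFC3 from -0.06 to 0.08, LIG1 from -0.07 to 0.06 and SLBP from -0.08 to 0.01. MCM7 was at -0.09 and RFC4 at -0.07 under quantile normalization, and TYMS at -0.18 without the first mimic array. The cause was not tested.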
